A study of Mus musculus with 2 samples.

Results

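Arg1-high macrophages are described here as the cells with at least 3 UMIs (unique molecular identifiers, each standing for 1 captured RNA molecule) of Arg1, at least 1 UMI of Ptprc or Tyrobp, and none of Cd3d, Cd3e, Cd3g or Cd79a. The cells were thus chosen by their measured UMIs of these genes. The rule found 197 of 10720 deposited cells, 33 in the DFMO library and 164 in the water library. They were set against other myeloid cells, which had at least 3 UMIs of Lyz2, none of Arg1 and passed the same conditions on Ptprc, Tyrobp, Cd3d, Cd3e, Cd3g and Cd79a. There were 156 of these in the DFMO library and 1011 in the water library. The cells came from tumours grown in C57BL/6 mice from 200000 implanted MC38 cells, a mouse colon carcinoma line. From day 7 the mice were gavaged for 14 days with DFMO, an inhibitor of ornithine decarboxylase, or with water (the labels give the frequency as daily in one place and as 2 times a day in another). Tumours were digested, immune cells were enriched on Ficoll, and the cells of 4 mice were pooled into 1 single-cell 5' library for each group. The strain, the tumour line and the cell isolation were shared by both groups, and the age and sex of the mice are not used here. With 1 pooled library per group there is no replicate error, so differences between DFMO and water are given without a test, and every interval is a 95% interval of counting error only.

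Arg1 encodes arginase 1, the cytosolic enzyme that splits arginine into urea and ornithine. Ornithine is the substrate of ornithine decarboxylase, which makes putrescine, the first of the polyamines, so arginase-rich macrophages can feed the pathway that DFMO blocks. In tumours, macrophages rich in arginase 1 are commonly found in regions poor in oxygen and are known for depleting arginine needed by T cells. On the mm10 build the Arg1 gene lies on the minus strand of chromosome 10 from 24915221 to 24927484, Mmp12 on chromosome 9 from 7344381 to 7369499, Nos2 on chromosome 11 from 78920787 to 78960254, Sat1 on chromosome X from 155213132 to 155216449 and Spp1 on chromosome 5 from 104435118 to 104441050. All 5 are protein-coding genes.

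The Arg1-high cells were 0.738% of the deposited DFMO cells (exact Clopper-Pearson interval 0.508 to 1.03) and 2.62% of the deposited water cells (2.24 to 3.05). Within the myeloid gate, which also holds cells with 1 or 2 Arg1 UMIs, they were 33 of 203 cells in DFMO, or 16.3% (11.5 to 22.1), and 164 of 1241 in water, or 13.2% (11.4 to 15.2). The share of all cells was thus lower in DFMO, while the intervals of the share within the myeloid gate overlapped. The myeloid gate itself held fewer of the DFMO cells, and sampling of cells by the pooling, the Ficoll step and the capture cannot be told apart from a difference in the tumours. The Arg1-high cells carried 435 of the 477 Arg1 UMIs of the DFMO library (91.2%) and 2714 of 2905 in the water library (93.4%). T cells, which had at least 3 CD3 UMIs, had an Arg1 UMI in 0.348% of DFMO cells and 1.04% of water cells. Per cell, the Arg1-high cells held a median of 7 Arg1 UMIs (range 3 to 54) in DFMO and 11 (3 to 94) in water.

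The median total was 7783 UMIs per Arg1-high cell in DFMO and 5443.5 in water, against 5989.5 and 4850 in the other myeloid cells. Over all deposited cells the medians were 2232 and 6475 UMIs. The libraries shared 37 barcodes, and 3 of the Arg1-high cells, all in water, had such a barcode. Scrublet called 4 water cells and 0 DFMO cells among them doublets, and these were kept. A UMI of Col1a1, Col1a2, Col3a1, Epcam, Krt8 or Krt18 was present in 1 of the DFMO and 16 of the water cells. The T cell genes Cd3d, Cd3e and Cd3g and the B cell gene Cd79a are at 0 by the rule, and Trac, Ms4a1, Cpa3, Fcer1a, Ms4a2, Epcam, Krt19 and Pdgfrb, outside the rule, were also at 0. Not every gene of such cell types was at 0. Cd79b, a B cell gene, had 6 UMIs in DFMO and 31 in water, and 7 fibroblast markers had 44 and 1572. Markers of natural killer cells had 30 and 78, of T cells 0 and 2, of mast cells and basophils 2 and 2, and of tumour epithelium 0 and 4.

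The label of macrophages was checked against 12 macrophage markers. Cd68, a lysosomal glycoprotein of macrophages, had a UMI in 33 of 33 DFMO cells and 154 of 164 water cells. Its level was 1611 CPM (the UMIs of a gene per 1000000 summed UMIs of the cell set) in DFMO and 1711 CPM in water, against 629 and 660 CPM in the other myeloid cells, and its log2 ratio to them was 1.36 and 1.37. Of the 12 markers, 10 were higher than in the other myeloid cells in both libraries and none was lower in both. Over all 5461 genes with at least 30 UMIs in each library, 17.2% were higher in both and 60.3% lower in both, and the median log2 ratio was -0.35 in DFMO and -0.31 in water. That median shift is the level that the ratios below are to be read against. Complement C1q genes, which resident and tumour macrophages transcribe, summed to at least 3 UMIs in 29 of 33 DFMO and 123 of 164 water cells and to 0 in 4 and 29 cells. The label therefore held for most of the cells, and the cells without C1q were kept under the rule.

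Monocyte markers were lower. Of 8 measured, 7 were lower in both libraries and 4 of them by at least 2-fold, against 60.3% and 5.86% of all genes. Their median log2 ratio was -1.34 in DFMO and -1.72 in water. Hp, which encodes haptoglobin, was at 26.5 CPM in DFMO and 33.8 in water, against 542 and 529 CPM in the other myeloid cells. Its log2 ratio was -4.36 and -3.97. Chil3, which encodes a chitinase-like protein of monocytes and alternatively activated macrophages, was at 41.6 and 116 CPM against 825 and 542 CPM. Ly6c2, a surface antigen of classical monocytes, was at 1154 and 1022 CPM against 2001 and 2193 CPM, a smaller difference. The neutrophil genes S100a9, Cxcr2, Retnlg and Ly6g had no UMI in any of the Arg1-high cells, and S100a8 had 2 UMIs in DFMO and 3 in water. Csf3r, another of the 7 neutrophil markers in the matrix, had 12 and 24 UMIs. Of 4 measured against the other myeloid cells, 3 were lower in both libraries and 1 was higher in both. The neutrophil list summed to 102 CPM in DFMO and 53.3 in water, against 301 and 236 CPM in the other myeloid cells. Cd209a and Ccr7, genes of dendritic cells, and Gata3, the defining regulator of type 2 lymphoid cells, were at 0. All 8 conventional dendritic markers together summed to 53.0 CPM in DFMO and 71.1 in water, against 335 and 211 CPM in the other myeloid cells. The 6 type 2 lymphoid markers in the matrix, of which only Gata3 was at 0, summed to 166 CPM in DFMO and 209 in water. In the other myeloid cells they summed to 62.1 and 58.5 CPM. Of 2 measured, 1 was higher in both libraries and 1 lower in both. Il7r, described under the other observations, is a member of this list.

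The 5 marker genes were not equally frequent among the cells. Mmp12, which encodes macrophage elastase, had a UMI in 16 of 33 DFMO cells (48.5%) and 77 of 164 water cells (47.0%). In other myeloid cells the shares were 2.56% and 1.58%, and in T cells 0.116% and 0.559%, at median depths of 2172.5 and 3005 UMIs. With every cell thinned to 2000 UMIs, which left 29 DFMO and 153 water cells, the shares in Arg1-high cells were 40.5% and 42.3%, against 2.16% and 0.813% in the other myeloid cells. Its level was 1275 CPM in DFMO and 1428 CPM in water, against 42.6 and 11.9 CPM in the other myeloid cells. Single cells ranged from 0 to 90 UMIs in DFMO and from 0 to 114 in water, so about as many cells lacked it as held it. Spp1, which encodes the secreted phosphoprotein osteopontin, had a UMI in 45.5% of the DFMO and 49.4% of the water cells. The other myeloid cells had a UMI of it in 7.69% in DFMO and 7.42% in water, and T cells in 3.43% and 12.8%. The log2 ratio of Spp1 to the other myeloid cells was 1.73 in DFMO and 5.51 in water. Nos2, the inducible nitric oxide synthase that competes with arginase for arginine, had one in 8 of 33 and 44 of 164 cells. Its thinned shares were 15.3% and 11.5%. Sat1, spermidine and spermine acetyltransferase, which starts polyamine catabolism, had a UMI in 90.9% and 91.5% of the Arg1-high cells, but also in 93.6% and 92.7% of the other myeloid cells. Sat1 was at 1774 CPM in DFMO and 1487 in water, against 1163 and 1194 CPM in the other myeloid cells. It is thus a gene of these cells at a higher level, and not one that only they express.

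**Figure D1:**
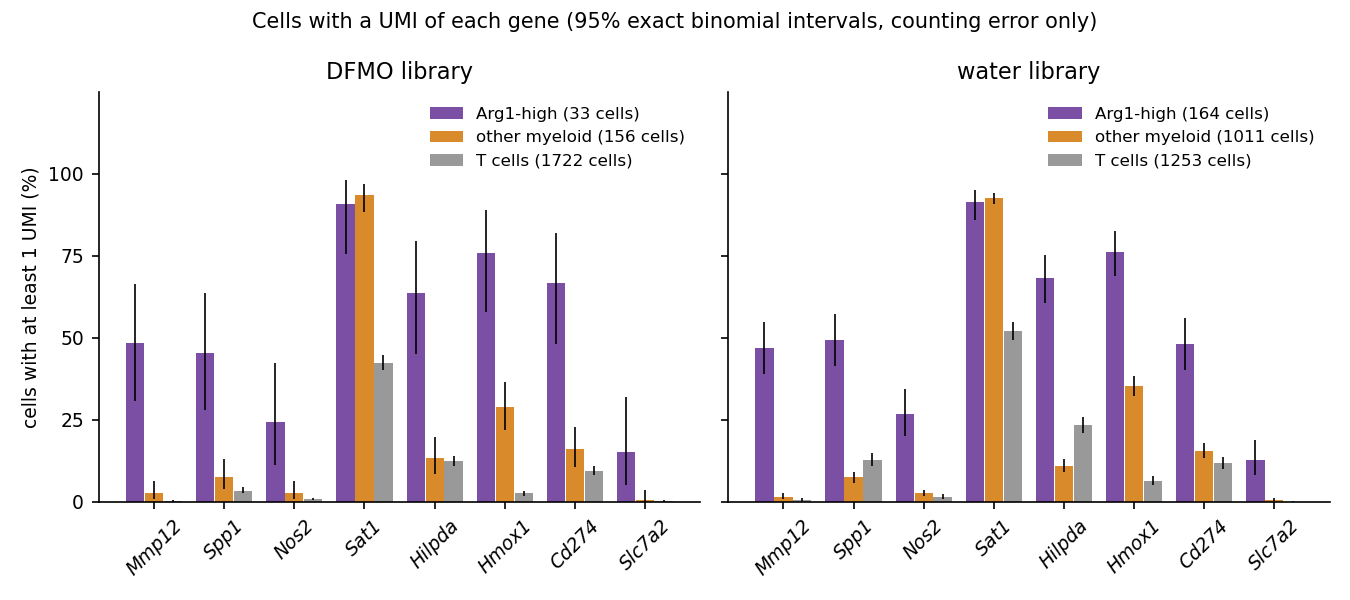
Share of cells with at least 1 UMI of 8 genes in the DFMO (left) and water (right) libraries, as bars with 95% exact binomial intervals of counting error, for Arg1-high cells, other myeloid cells and T cells. Mmp12 stands at 48.5% and 47.0% in the Arg1-high cells against 2.56% and 1.58% in other myeloid cells, while Sat1 stands above 90 in both myeloid sets.

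The rule itself sets these cells against the other myeloid cells, so the ratios are a description and carry no test. Among 2205 genes with at least 100 UMIs over the 2 cell sets in each library, 89 (4.04%) were at least 2-fold higher in both libraries and 122 (5.53%) at least 2-fold lower in both. With TMM library sizes, which add 0.23 to the log2 ratios in DFMO and 0.25 in water, 123 were higher and 75 lower. Hypoxia and glycolysis genes were mostly higher. Of 27 measured, 26 were higher in both libraries, 17 of them by at least 2-fold, against 3.09% of all genes at the minimum of 30 UMIs, where 5.86% were at least 2-fold lower. Their median log2 ratio was 1.47 in DFMO and 1.29 in water.

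Hilpda, which encodes a lipid droplet protein induced by low oxygen, was at 711 CPM in DFMO and 958 in water, against 77.2 and 49.3 CPM in the other myeloid cells. Vegfa, the vascular endothelial growth factor, was at 367 and 228 CPM against 51.5 and 34.7 CPM. Gapdh, Aldoa and Ldha, enzymes of glycolysis and lactate formation, were each higher in both libraries, with Aldoa at 5614 and 5319 CPM against 1686 and 1755 CPM. Hif1a, the oxygen-regulated transcription factor, was the only measured gene of the list that was not higher in both, with log2 ratios of 0.21 and -0.15. Bnip3, which encodes a mitophagy receptor and was named after its values were seen, was at 772 and 814 CPM against 160 and 182 CPM.

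Promoter windows were searched for the genes of this list. In RefSeq (build GRCm38.p6), 26 of the 28 list genes in the matrix had at least 1 window. The letters searched were ACGTG and GCGTG, the core of the element bound by hypoxia-inducible factors, on both strands in the 250 bases before each start. A match on the other strand reads as the reverse complement here, and CACGTG counts as 2 matches. They were found for 22 of the 26 list genes (84.6%) and for 56.9% of the 12607 matrix genes with a window. These gene sets were not matched for base content or number of windows. Bnip3, and Pgk1, which encodes phosphoglycerate kinase, were chosen after their values were seen to show windows with 5 and 2 matches, in capitals. Hilpda and Mmp12, shown because they had the highest mean log2 ratio of the 2 libraries among the genes with at least 100 UMIs and 50 CPM, have none in the bases printed. All are given in the direction of the gene, with bases that GENCODE counts as transcribed left out.
Bnip3: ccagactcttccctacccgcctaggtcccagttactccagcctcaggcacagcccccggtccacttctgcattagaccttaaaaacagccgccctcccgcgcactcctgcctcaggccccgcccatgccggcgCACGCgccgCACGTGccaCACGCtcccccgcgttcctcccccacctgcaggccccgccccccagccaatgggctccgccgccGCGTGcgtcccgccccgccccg
Pgk1: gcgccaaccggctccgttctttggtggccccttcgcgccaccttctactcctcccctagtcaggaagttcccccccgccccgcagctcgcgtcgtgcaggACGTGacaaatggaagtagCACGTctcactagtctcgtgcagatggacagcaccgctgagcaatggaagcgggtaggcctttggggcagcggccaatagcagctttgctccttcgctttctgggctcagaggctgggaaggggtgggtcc
Hilpda: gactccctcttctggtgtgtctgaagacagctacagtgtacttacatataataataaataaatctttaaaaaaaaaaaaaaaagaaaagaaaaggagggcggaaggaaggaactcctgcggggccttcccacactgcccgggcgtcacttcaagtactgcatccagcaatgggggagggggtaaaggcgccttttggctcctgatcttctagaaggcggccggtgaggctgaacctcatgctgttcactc
Mmp12: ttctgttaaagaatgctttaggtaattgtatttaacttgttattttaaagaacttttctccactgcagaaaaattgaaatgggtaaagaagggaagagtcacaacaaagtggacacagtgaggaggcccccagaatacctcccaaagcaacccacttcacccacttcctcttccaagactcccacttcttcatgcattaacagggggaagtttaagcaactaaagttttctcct
The windows are chr7:138909520-138909756 on the minus strand for Bnip3, chrX:106186850-106187099 on the plus strand for Pgk1, chr6:29272238-29272487 on the plus strand for Hilpda and chr9:7344147-7344380 on the plus strand for Mmp12. A match is only a run of letters, and binding or regulation in these cells was not tested.

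Genes of lipid-associated macrophages formed the second group. All 14 measured were higher in both libraries, 11 by at least 2-fold, with a median log2 ratio of 1.71 in DFMO and 2.02 in water. Over all genes at this minimum, 17.2% were higher in both libraries and 3.09% by at least 2-fold, also for the lists that follow. Trem2, a lipid-sensing receptor, was at 692 and 841 CPM against 98.5 and 179 CPM. Gpnmb, a lysosomal glycoprotein, was at 280 and 299 CPM against 63.9 and 33.0 CPM. Apoe, the lipid carrier apolipoprotein E, was at 8500 and 13712 CPM against 1989 and 4678 CPM. Iron, heme and oxidative stress genes were higher in 12 of 13 measured, 7 by at least 2-fold, led by Hmox1, which encodes the heme-degrading heme oxygenase 1, at 2304 and 1924 CPM against 432 and 158 CPM. In DFMO 1 of the other myeloid cells held 254 of their 487 Hmox1 UMIs. Fth1, the ferritin heavy chain that stores iron, was at 37241 and 42589 CPM against 9061 and 9986 CPM. Of 18 lysosome and cathepsin genes, 16 were higher in both, and of 14 complement and phagocytic receptor genes, 11.

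Other genes named by the ratio were Adam8, a surface protease, with log2 ratios of 3.12 in DFMO and 3.29 in water, and C3ar1, the receptor of complement C3a, with 3.40 and 2.29. Cd274, which encodes the checkpoint ligand PD-L1, was at 431 CPM in DFMO and 163 in water, against 37.3 and 37.2 CPM, a log2 ratio of 3.53 and 2.13. Ccl8, a monocyte-attracting chemokine, had log2 ratios of 4.16 and 2.06, but 79.6% of its DFMO UMIs lay in 1 cell. Cell cycle genes were lower in both libraries in 9 of 11 measured, against 60.3% of all genes, with medians of -1.33 in DFMO and -1.18 in water. Without the cells holding stromal or epithelial UMIs the median in water was 0.22. Nr4a1, an early response nuclear receptor that marks patrolling monocytes, was among the lowest, at 41.6 and 36.4 CPM against 481 and 340 CPM.

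**Figure D2:**
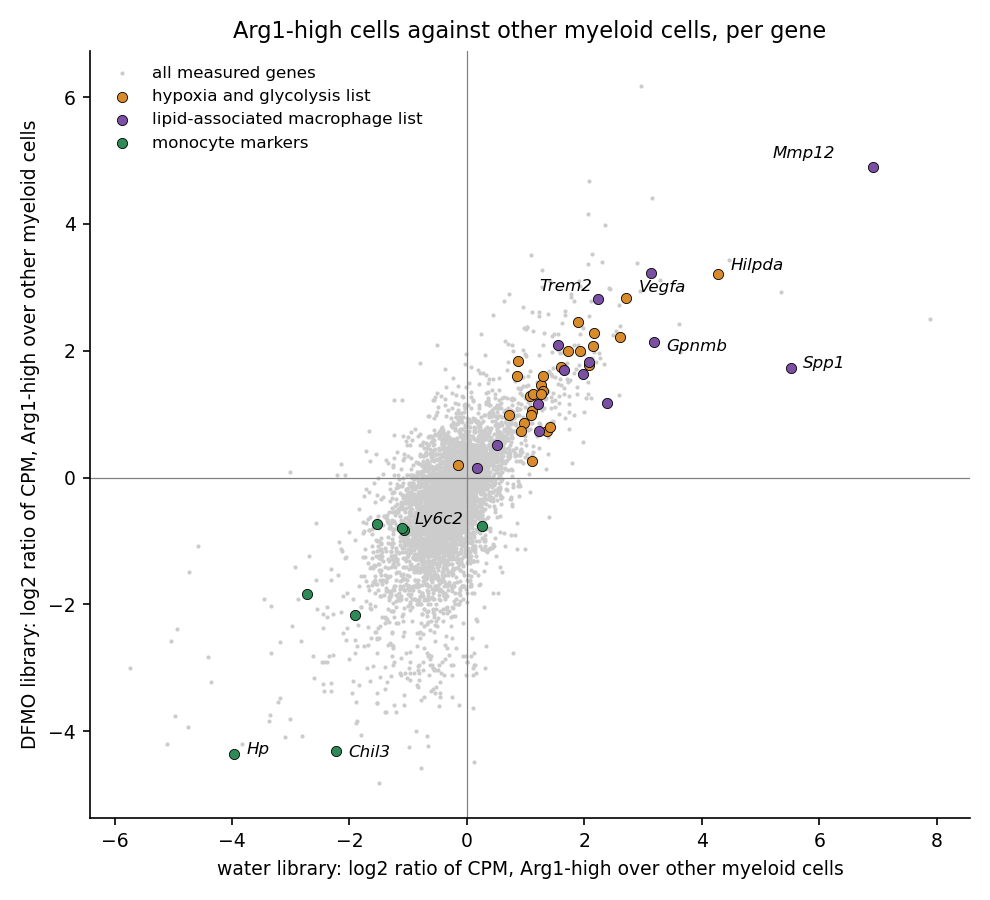
Log2 ratio of CPM in Arg1-high cells over other myeloid cells for each measured gene, in the water library (horizontal axis) and the DFMO library (vertical axis), with the hypoxia and glycolysis list, the lipid-associated macrophage list and the monocyte markers coloured. Genes with 0 UMIs in 1 cell set are drawn at the bound that 3 counts give. Mmp12 and Hilpda lie at the upper right in both libraries, and Hp and Chil3 at the lower left.

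Many of the other myeloid cells were monocytes by their markers, so the ratios were also taken against those with at least 3 C1q UMIs, 28 cells in DFMO and 336 in water. This left 43 genes at least 2-fold higher and 4 at least 2-fold lower in both libraries. Fewer genes reached the minimum of UMIs here, so these counts cannot be set against those above. The list counts that follow stand without a share over all genes. Hypoxia and glycolysis genes were higher in both libraries in 24 of 25 measured, with medians of 1.16 and 1.16, and lipid-associated genes in 12 of 13, with medians of 1.16 and 1.74. The macrophage markers had medians of 0.47 in DFMO and -0.12 in water. Only 4 monocyte markers were measured here, with medians of 0.86 and -0.75. Of 13 complement and phagocytic receptor genes, 6 were higher in both, and the median in water was -0.065. Several single genes were no longer 2-fold apart in both libraries. Hmox1 had log2 ratios of 0.37 and 3.36, Apoe of 0.09 and 0.11, C3ar1 of 1.93 and 0.96, and Ccl8 of 1.90 and 0.41. For Hmox1 in DFMO, 1 of these comparison cells held 254 of the 487 UMIs of all other myeloid cells. The ratio to the C1q cells without that cell was not taken. Among the genes lower against all other myeloid cells, Chil3 had -0.43 and -0.23 and Nr4a1 had -0.30 and -1.51. Hp, with 2 UMIs in the DFMO cells compared, was not on one side in both. Gatm had 0.05 and -0.36. The hypoxia and lipid-associated lists were thus higher against both sets of comparison cells, while the macrophage and monocyte markers were not on one side in both libraries.

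Of 10 measured arginine genes other than Arg1, 6 were higher in both libraries and 1 was lower, against 17.2% and 60.3% of all genes. Their medians were 0.45 in DFMO and 0.16 in water. Slc7a2, a cationic amino acid transporter that imports arginine, was at 41.6 CPM in DFMO and 25.4 in water, against 0.887 and 1.01 CPM in the other myeloid cells. It rested on 11 and 30 UMIs, in 5 of 33 and 21 of 164 cells. Gatm, which uses arginine for creatine synthesis, was at 329 and 191 CPM against 101 and 119 CPM. Ass1 and Asl, which rebuild arginine from citrulline, had log2 ratios of 0.64 and 0.27 for Ass1 and of 0.60 and 0.05 for Asl. Arg2, the mitochondrial arginase, had 4 and 12 UMIs. Glud1, glutamate dehydrogenase, was lower, with -1.23 and -1.48.

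Among 15 measured polyamine genes, 5 were higher in both libraries and 7 lower, against 17.2% and 60.3% of all genes. Their medians were -0.25 in DFMO and -0.08 in water, against -0.35 and -0.31 over all genes. Smox, spermine oxidase, was at 310 CPM in DFMO and 380 in water, against 115 and 103 CPM. Sms, spermine synthase, was at 87.0 and 46.5 CPM against 32.8 and 25.5 CPM. Odc1, the target of DFMO, was at 110 and 55.8 CPM against 65.7 and 54.5 CPM. Srm, spermidine synthase, Mtap, which recycles the by-product of spermidine and spermine synthesis, and Eif5a, the factor that carries hypusine made from spermidine, were lower in both. Mtap had log2 ratios of -3.13 and -1.29. The genes of the list thus lay on both sides, and its median changed sign under some alternatives, reaching 0.47 in DFMO and 0.17 in water.

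DFMO was set against water within the Arg1-high cells. Among 1993 genes with at least 100 UMIs over both libraries, 21 (1.05%) were at least 2-fold higher and 57 (2.86%) at least 2-fold lower in DFMO, and over 4987 genes with at least 30 UMIs the median log2 ratio was -0.03. Leaving out, for each gene, the cell with most of its UMIs in each library left 7 genes 2-fold higher. Arg1 itself was at 1645 CPM in DFMO and 2296 in water, a log2 ratio of -0.48 (-0.63 to -0.33). The rule sets a floor on Arg1, so this compares only the cells above it.

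MHC class II genes, which present peptides to CD4 T cells, were higher in DFMO. All 6 measured were higher, against 47.1% of all genes at this minimum, with a median log2 ratio of 1.02, and 3 were at least 2-fold higher, against 2.47% of all genes. H2-Ab1, a class II beta chain, was at 5144 CPM in DFMO and 2262 in water, a log2 ratio of 1.19 (1.09 to 1.28). H2-Aa, a class II alpha chain, was at 6234 and 2888 CPM, with 1.11 (1.02 to 1.20). Cd74, the invariant chain, was at 18539 and 10520 CPM, with 0.82 (0.77 to 0.86). In the other myeloid cells, where 0.415% of 6741 genes were at least 2-fold higher and 1.07% lower in DFMO, 8 of 10 measured class II genes were lower in DFMO, with a median of -0.39. Cells with at least 3 C1q UMIs were 28 of the 156 other myeloid cells in DFMO and 336 of 1011 in water. Within these C1q cells 7 of 8 measured class II genes were lower in DFMO, with a median of -0.25. The part of this mix in the ratios was not tested. Whether the difference between the cell sets exceeds that between animals was also not tested. Without the top cell of each gene the log2 ratio was 0.90 for H2-Ab1 and 0.93 for H2-Aa.

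Interferon response genes were higher in 21 of 24 measured, against 47.1% of all genes, with a median log2 ratio of 0.55. That median was -0.08 in the other myeloid cells and 0.001 in those with at least 3 C1q UMIs. Cxcl9, a chemokine that draws T cells, was at 688 CPM in DFMO and 124 in water, a log2 ratio of 2.48 (2.16 to 2.80), against 416 and 394 CPM in the other myeloid cells. It had a UMI in 9 of 33 and 21 of 164 cells, so few cells carried it. Rsad2, which encodes the antiviral protein viperin, was at 1112 and 519 CPM, with 1.10 (0.90 to 1.30). Cxcl10, another interferon-induced chemokine, was lower, at 397 and 684 CPM. Cd274 was at 431 and 163 CPM, with 1.40 (1.05 to 1.74), and at 37.3 and 37.2 CPM in the other myeloid cells. It was detected in 22 of 33 DFMO cells and 79 of 164 water cells. Cx3cr1, the fractalkine receptor, had a log2 ratio of 1.57 (1.08 to 2.05), and Acod1, which makes itaconate, 1.23 (0.87 to 1.58). Htra1 was at 159 and 66.0 CPM, but 76.2% of its DFMO UMIs lay in 1 cell and the log2 ratio was -0.13 without the top cells.

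Genes of lipid-associated macrophages were lower in DFMO in 16 of 17 measured, with a median log2 ratio of -0.34, and 3 were at least 2-fold lower, against 7.34% of all genes. Of all genes at this minimum, 47.1% were higher in DFMO. In the other myeloid cells 10 of 17 genes of the list were lower in DFMO, with a median of -0.14. In those with at least 3 C1q UMIs, 10 of 16 were lower, with a median of -0.36. Spp1 was at 356 CPM in DFMO and 2315 in water, a log2 ratio of -2.70 (-3.01 to -2.41). In water 1 cell held 31.2% of its UMIs, and the ratio without the top cells was -2.59. The shares of cells with a Spp1 UMI were 45.5% and 49.4%, and 31.0% and 40.8% with cells thinned to 2000 UMIs. In T cells the share was also lower in DFMO, at 3.43% against 12.8% in water, and its part in the ratio was not tested. In the other myeloid cells Spp1 was at 107 CPM in DFMO and 50.8 in water, with shares of 7.69% and 7.42%. There 1 DFMO cell held 90 of the 121 UMIs. Pf4, a platelet factor chemokine also made by macrophages, was at 219 and 911 CPM, with -2.05 (-2.46 to -1.67). Cxcl2 and Ccl3, chemokines that attract neutrophils and monocytes, were also lower, with -1.22 and -1.27. Hypoxia and glycolysis genes were higher in 15 of 27, with a median of 0.04, and so did not lean to either library.

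Several of the lowest genes were those of other cell types. Dcn and Col3a1, matrix genes of fibroblasts, were lower in DFMO, with Dcn at 45.4 and 610 CPM, and so was H19, an imprinted noncoding RNA. Summed over 7 fibroblast markers, the level was 166 CPM in DFMO and 1330 CPM in water, against 1223 and 1673 CPM in the other myeloid cells, and Pdgfrb was at 0. Cells with stromal or epithelial UMIs were 1 of 33 and 16 of 164, and without such cells 32 genes rather than 57 were at least 2-fold lower. Gzmf and Gzmd, granzymes of lymphocytes, each had UMIs in 1 water cell, and Gzmc from 1 DFMO and 3 water cells. Without the cells holding stromal or epithelial UMIs, the DFMO over water median was 0.99 for MHC class II, 0.29 for interferon response and -0.48 for lipid-associated genes, and the log2 ratio of Spp1 was -2.82. Without the cells holding lymphoid UMIs, these were 0.98, 0.50, -0.32 and -2.72.

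In the arginine list 9 of 11 measured genes were higher in DFMO, against 47.1% of all genes, with a median of 0.29. In the other myeloid cells 9 of 16 were higher, against 52.7% of all genes, with a median of 0.13. Nos2 was at 132 CPM in DFMO and 68.5 in water, with 0.95 (0.34 to 1.54), and 0.34 without the top cells. Gatm was at 329 and 191 CPM, with 0.78 (0.41 to 1.15). In the polyamine list 8 of 14 were higher, with a median of 0.15. In the other myeloid cells 13 of 18 polyamine genes were higher, with a median of 0.24. Odc1 was at 110 and 55.8 CPM, from 29 and 66 UMIs, with 0.97 (0.29 to 1.62). Sms had 0.90 (0.13 to 1.63), and Sat1 had 0.25 (0.10 to 0.40). Smox had -0.29 (-0.65 to 0.05), whose interval includes 0.

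**Figure D3:**
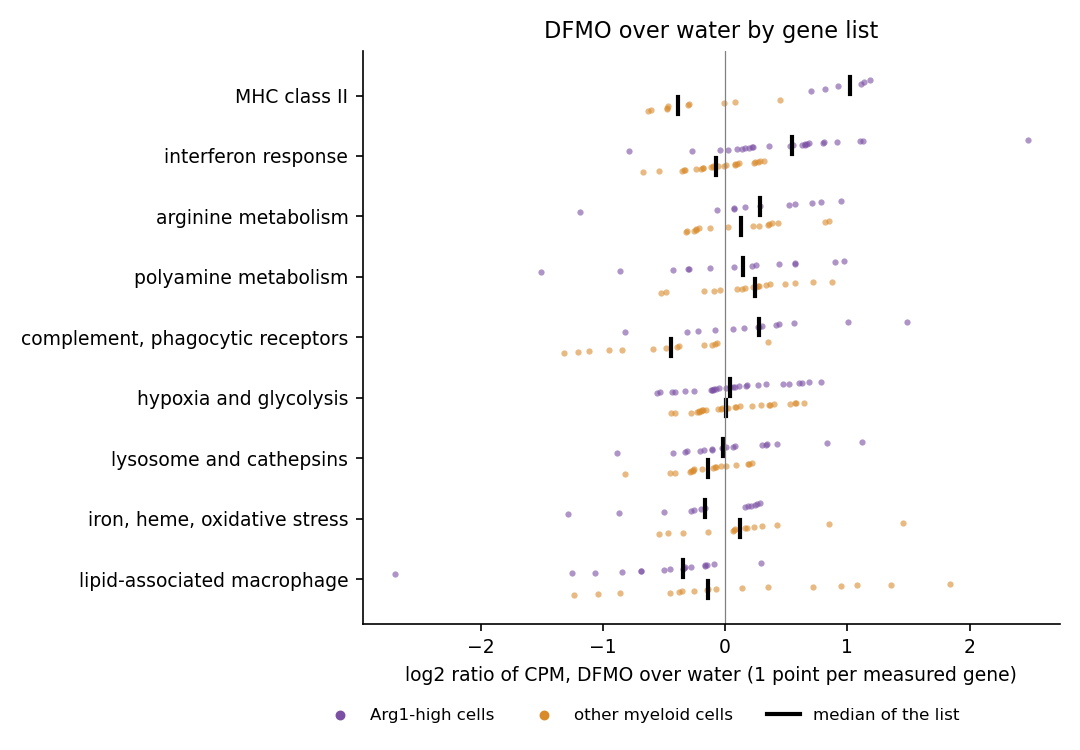
Log2 ratio of CPM, DFMO over water, for each measured gene of 9 lists, in Arg1-high cells and other myeloid cells, with the median of each list as a black bar. The MHC class II median is 1.02 in the Arg1-high cells and -0.39 in the other myeloid cells.

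The cells were also divided by Mmp12, a split made after its detection was seen. Cells with an Mmp12 UMI numbered 16 in DFMO and 77 in water, and those without numbered 17 and 87. Median totals were 5515.5 and 8892 UMIs in DFMO with and without it, and 7313 and 4935 UMIs in water, so depth differed in opposite directions. The hypoxia and glycolysis list summed to 58165 CPM in DFMO and 48246 CPM in water with Mmp12, against 33814 and 30861 CPM without. Hilpda was at 1396 and 1337 CPM with Mmp12 and at 221 and 587 CPM without. Hmox1 and Nos2 were likewise higher with it in both libraries. MHC class II went the other way, summing to 11011 and 12454 CPM with Mmp12 and to 53999 and 24668 CPM without. Per cell, the median of the MHC class II list was 18.6 UMIs per 10000 with and 416 without Mmp12 in DFMO, and 37.4 and 105 in water. The cells overlapped in each library, and the DFMO cells ranged from 2.08 to 512.9 with and from 26.7 to 1391 without Mmp12. Cxcl9 in DFMO was at 99.7 CPM with and 1110 CPM without Mmp12, in 1 of 16 and 8 of 17 cells. MHC class II and Cxcl9 thus differed most between the libraries in the cells without Mmp12, of which DFMO had 17. The interferon response list differed in the cells with Mmp12 instead, at 11673 CPM in DFMO against 5711 in water, and was at 7603 and 8236 CPM in those without. Cd274 was higher in DFMO in both, at 653 and 184 CPM with Mmp12 and at 273 and 143 CPM without.

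**Figure D4:**
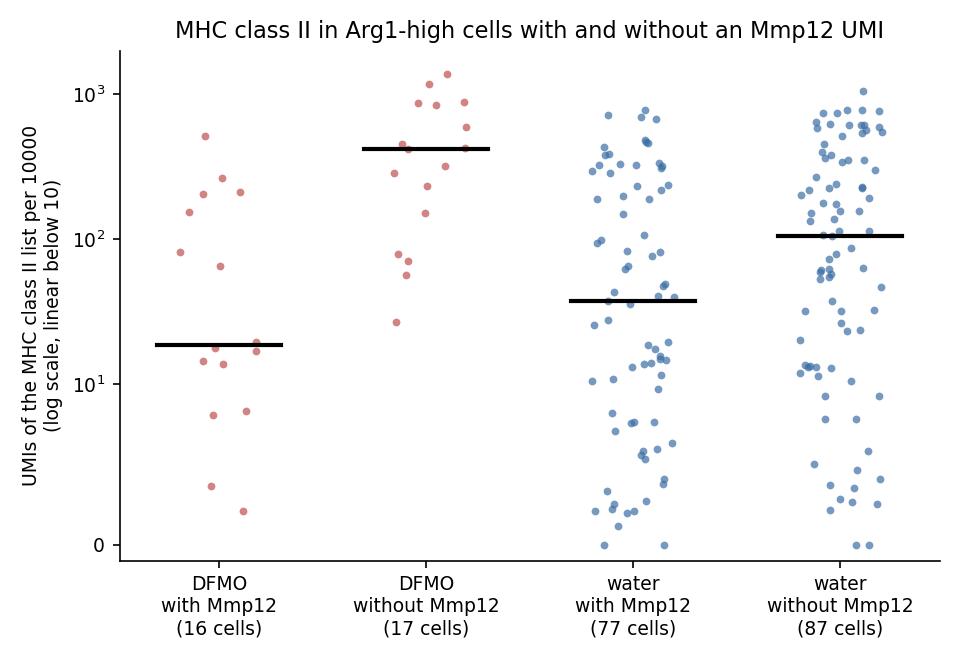
UMIs of the MHC class II list per 10000 UMIs in each Arg1-high cell (vertical axis, logarithmic above 10), by library and by whether the cell had an Mmp12 UMI, with the median as a bar. The median is 416 in the 17 DFMO cells without Mmp12 and 18.6 in the 16 with it.

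Within the Arg1-high cells, Arg1 per 10000 UMIs ranged from 2.37 to 52.7 in DFMO and from 1.24 to 117 in water, and the cells were divided by it into 3 bins of near equal size in each library. Mmp12 was at 434, 1104 and 3237 CPM from the lowest to the highest bin in DFMO and at 789, 2467 and 1557 CPM in water. Hmox1 was at 1239, 2570 and 3702 CPM in DFMO and at 678, 3156 and 2957 CPM in water. Both were lowest in the lowest bin in each library, and were highest in the highest bin in DFMO but in the middle bin in water. Sat1 was at 1487, 1682 and 2520 CPM in DFMO and at 1321, 1690 and 1586 CPM in water. MHC class II was highest in the lowest bin in both libraries, at 46004 CPM in DFMO and 24216 in water. Arg1 set the bins, and those of DFMO hold 11 cells each. The median depth from the lowest to the highest bin was 8892, 10501 and 4800 UMIs in DFMO and 7877, 5131 and 4831.5 in water, and a floor of 3 Arg1 UMIs admits only deeper cells at low Arg1 per 10000. The part of depth in these values was not tested.

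**Figure D5:**
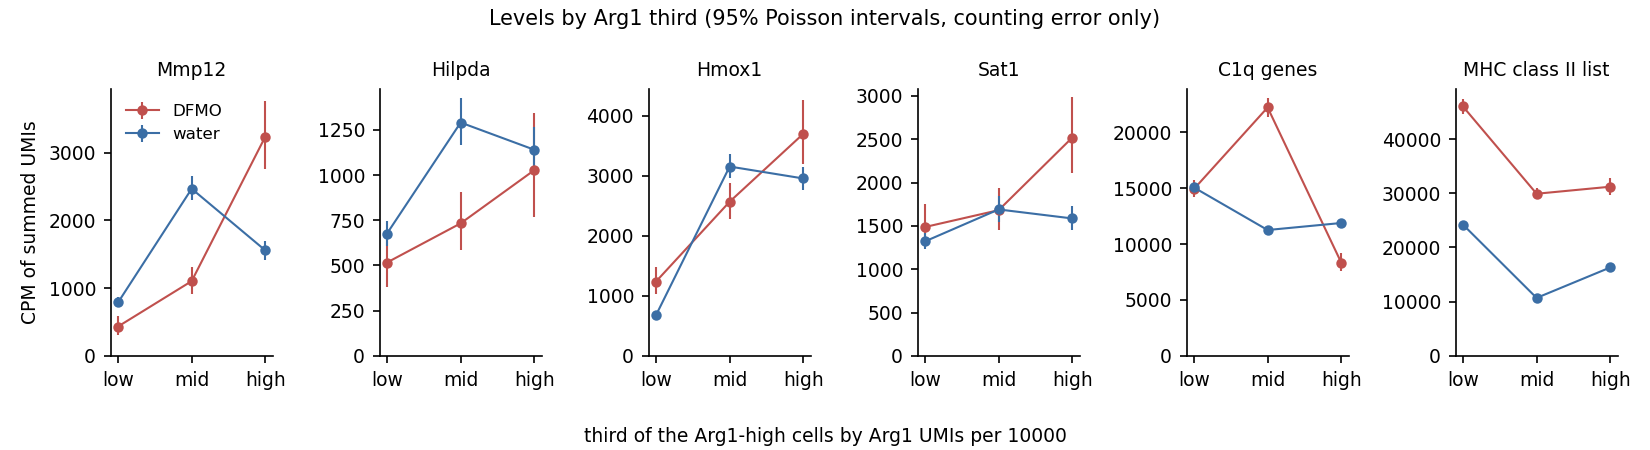
CPM of summed UMIs in 3 bins of the Arg1-high cells by Arg1 per 10000 UMIs (horizontal axis), for 4 genes, the C1q genes and the MHC class II list, in each library, with 95% Poisson intervals of counting error. Mmp12 and Hmox1 are lowest in the lowest bin of each library.

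At the edge of the rule, cells with 1 or 2 Arg1 UMIs numbered 18 in DFMO and 84 in water, and those with 3 or 4 numbered 7 and 33. Mmp12 was at 79.5 and 1026 CPM just outside, 717 and 583 CPM just inside, and 1424 and 1595 CPM in cells with 5 or more. Across the threshold Mmp12 was thus higher inside it in DFMO and lower inside it in water. Hilpda was at 246.6 and 269 CPM just outside and at 358 and 742 CPM just inside.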

How the data were processed

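Per the labels, 5' single-cell libraries were made from 4 pooled mice per group, and the submitters' processing notes name Cell Ranger 3.02, Scanpy 1.4.4 and mm10. The authors deposited raw UMI counts for 10720 cells and 17775 genes, and the sum of each cell's counts equalled its deposited total. How cells were filtered before deposit is not given in the sources used here. Counts were summed per library and cell set and scaled to CPM. Intervals are exact Poisson for levels, conditional binomial for log2 ratios and Clopper-Pearson for shares, at 95%. Where 1 set had 0 UMIs, 3 counts stood in as a bound. No p-value was computed, as each group is 1 library. List genes needed 30 UMIs and single genes 100. Named genes were the 15 highest and 10 lowest ratios to other myeloid cells, the 10 highest and 10 lowest of DFMO over water, both with at least 50 CPM and without rule genes and antigen receptor segments, the markers, all arginine and polyamine genes, and up to 6 abundant members of each list. The members, lists and rule were chosen with earlier results of these data known. Scrublet (scanpy 1.11.5, rate 0.05) called doublets, which were kept except in an alternative. The ratios and intervals were checked on simulated counts drawn independently for each gene, which is the counting error that they assume. The simulation did not include UMIs concentrated in few cells, so it cannot show how the intervals behave there. A first criterion, coverage in a single draw, was not met and was replaced by coverage over repeated draws. Alternatives varied the Arg1 threshold, gates, doublets, weighting, scaling (edgeR 4.0.16), depth, minimum and comparison cells, and leaving out each gene's top cells, or cells with lymphoid UMIs, was added after seeing the data. Gene positions came from GENCODE M21, which held 17743 of the 17775 gene identifiers. The software was Python 3.11.15, numpy 2.4.6, scipy 1.17.1 and pandas 2.3.3.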

Additional observations from a re-analysis of the deposited data

How the results depend on the processing

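The share of Arg1-high cells in water was 2.10% with at least 5 Arg1 UMIs and 4.66% after all cells with stromal or epithelial UMIs were left out, which also removes cells from the denominator. Genes 2-fold higher than in other myeloid cells numbered 169 at the lower minimum of UMIs and 43 against cells with C1q, and genes 2-fold lower numbered 320, 4 and, with TMM library sizes, 75. In DFMO over water, 123 genes were 2-fold higher and 366 lower at the lower minimum, 7 were higher without the top cells, and 36 were lower with at least 5 Arg1 UMIs per 10000 and 32 without cells holding stromal or epithelial UMIs. The MHC class II median was 1.21 with at least 5 Arg1 UMIs and ranged from 0.76 to 1.21 over 12 alternatives, the interferon median from 0.21 to 0.67. Of 18 list medians of at least 2-fold, 5 turned direction under some alternative, and of 72 single-gene ratios of that size, 2 did: against C1q cells, the medians of alternative activation in DFMO (0.27), complement and phagocytic receptors in water (-0.065), macrophage markers in water (-0.12) and monocyte markers in DFMO (0.86), and Hp in DFMO (1.50, on 2 UMIs in the comparison cells); without stromal or epithelial UMIs, the cell cycle median in water (0.22); and without top cells, Htra1 in DFMO over water (-0.13). Of 39 list medians under 2-fold, 24 turned direction under some alternative. Against other myeloid cells these included MHC class II in water (up to 0.95), alternative activation in water (0.67), polyamine genes (0.47 in DFMO, 0.17 in water), inflammatory genes in DFMO (0.30) and ATF4 genes in water (0.55). Mmp12 in DFMO over water was -0.16 and reached 0.69 with each cell weighted alike. The cause was not tested, except that lower minimums test more genes and the comparison with C1q cells tests fewer. No paired analysis was possible because the groups hold 1 library apiece. Depth limits genes with few UMIs, such as Slc7a2 and Odc1.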

Other observations

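Il7r, which encodes the interleukin-7 receptor alpha chain of lymphocytes, is on the list of type 2 lymphoid markers. It was at 155 CPM in the DFMO and 164 CPM in the water Arg1-high cells, against 20.4 and 4.02 CPM in the other myeloid cells. It had a UMI in 14 of 33 and 61 of 164 cells, with at most 6 and 11 UMIs per cell. Trac was at 0 in these cells, and the CD3 genes are at 0 by the rule. T cells had an Il7r UMI in 47.7% (DFMO) and 21.1% (water) of cells. The collagenase gene Mmp13, chosen after its values were seen, had a UMI in 5 of 33 and 33 of 164 Arg1-high cells and in 2 of 156 and 0 of 1011 other myeloid cells. Folr2, a folate receptor of tissue macrophages, was at 56.7 and 33.8 CPM against 0.887 and 2.68 CPM, from 4 and 17 cells.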
